A study of Homo sapiens with 6 samples.

Results

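The genes of glucose entry, glycolysis, gluconeogenesis, glycogen turnover and the pentose phosphate pathway were examined in HepG2, a human hepatocellular carcinoma line, treated for 24 h with 10 mM glycine or vehicle. The set held 40 genes, chosen by name and function but with earlier results of these data known, of 57500 genes in the deposited counts. Each of the 40 was found by its Ensembl identifier. Both groups were wild-type HepG2 cells, with 3 libraries each, in a low-glucose medium that itself contained some glycine. The vehicle libraries held between 34960947 and 35861020 counts, and the glycine libraries between 31795489 and 58815986. The comparison addresses whether glycine changes the transcripts of the enzymes that carry glucose carbon.

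Glycolysis splits glucose into pyruvate in the cytosol, and lactate dehydrogenase reduces pyruvate to lactate. Hepatocytes also run the path backwards, from lactate or amino acids to free glucose, and use liver forms of several enzymes for this, such as PCK1 and the catalytic subunit G6PC1. Many steps are carried out by alternative isoforms, and liver tumour lines usually express the widely used forms (HK2, PKM, ALDOA) beside or in place of liver forms such as PKLR.

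The libraries were first checked against the cell type. All 10 hepatocyte lineage markers examined were expressed, 2 of them (APOA1 and TTR) were lower with glycine, and 8 had log2 changes below 0. Their summed level lay between 29645 and 33705 CPM (counts relative to the scaled library total) with vehicle and between 25466 and 29164 CPM with glycine. Of the markers of other cell types, the 5 leukocyte markers summed to between 2124 and 2327 CPM with vehicle and between 1691 and 1850.4 CPM with glycine, nearly all of it LYZ, which was called lower, and CD3E was at 0 counts in all 6 libraries. The 4 endothelial markers summed to at most 5.76 CPM in any library, and 1 of the 3 tested was called lower. The 5 fibroblast and stellate cell markers summed to between 27.1 and 30.9 CPM with vehicle and between 21.3 and 22.0 CPM with glycine, most of it PDGFRB. The calls in that list went both ways, in 2 genes named after their values were seen. PDGFRB was called lower (log2 change -0.66 ± 0.0811, edgeR adjusted p = 0.000137), whereas COL1A1 was called higher, from 2.31, 1.86 and 2.28 to 4.29, 5.02 and 3.84 CPM (log2 change 1.03 ± 0.151, edgeR adjusted p = 0.000585). All libraries came from HepG2 cultures, and bulk RNA cannot separate fewer expressing cells from less RNA per cell.

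Of the 40 genes, 38 were expressed enough to be tested, and 12 of these passed the threshold (edgeR quasi-likelihood test, adjusted p under 0.05 over all 15492 tested genes). A total of 7 were higher with glycine and 5 lower. Over all tested genes, 13.3% were called, 6.71% higher and 6.54% lower, and 31.6% of the 38 tested members were called. The genes that rose were the glucose carriers SLC2A2 and SLC2A3, the hexokinase HK2, the phosphofructokinase PFKP, the enolase ENO2, the glucose 6-phosphatase G6PC3 and the gluconeogenic FBP1. FBP1 met the expression filter only through the glycine libraries, the group in which it was higher. Those that fell were the gluconeogenic PCK1 and G6PC1, the liver pyruvate kinase PKLR, the glycerol 3-phosphate dehydrogenase GPD1L and the phosphoglucomutase PGM1. The highly expressed enzymes of the main path, among them GAPDH, ENO1, ALDOA, LDHA and PKM, did not pass the threshold. The median log2 change of the tested members was 0.03, against 0.00 over all tested genes, and the median absolute log2 change was 0.14, the same as over all tested genes to 2 decimals.

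**Figure D1:**
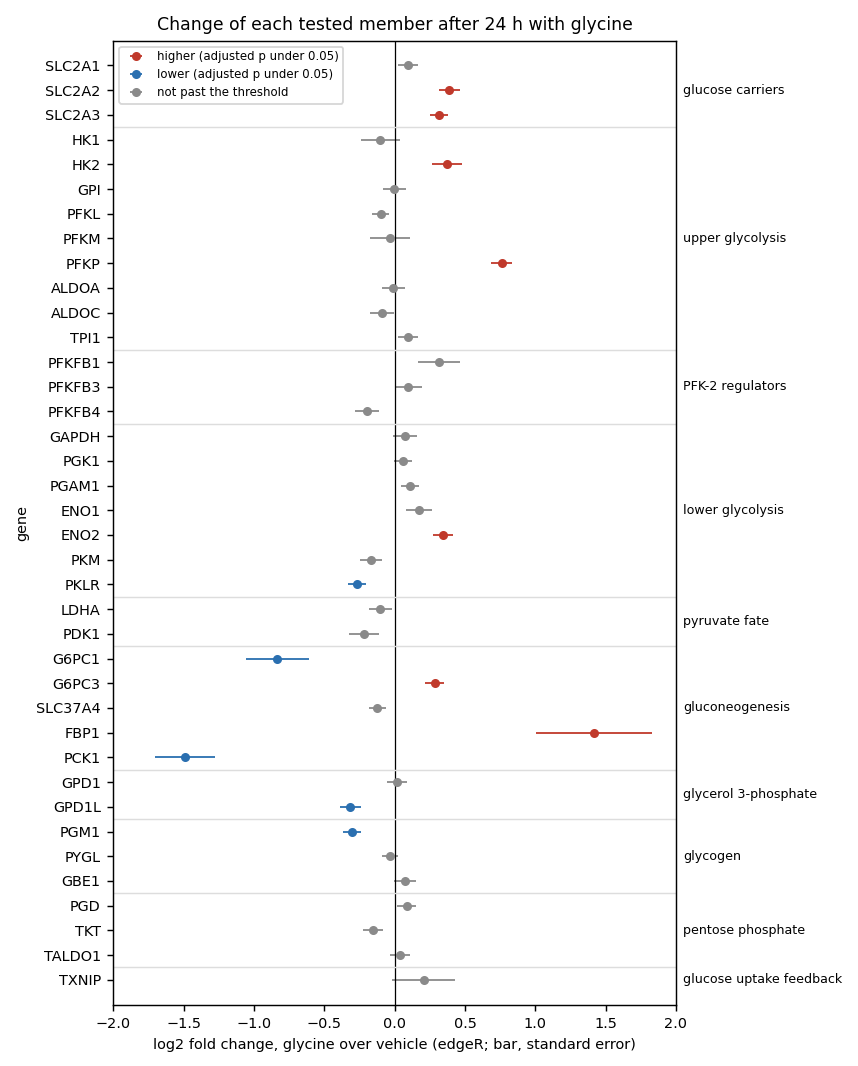
Log2 fold change (x axis) of each tested member (y axis, grouped by role), glycine over vehicle, with the standard error of the edgeR fit; red and blue mark genes past the threshold and grey the others. The changes run from -1.49 for PCK1 to 1.42 for FBP1, and the grey points of the main path lie close to 0.

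Glycine and vehicle libraries did not overlap in 20 of the 38 tested members, 10 above and 10 below, against 31.6% of all tested genes (17.2% above and 14.4% below). All 12 called members were among these 20. All 12 kept their direction in each of the 15 alternative fits that tested them (FBP1 was not tested under the filter of 1 CPM), and none of the other 26 tested members was called in any of them. The call of 6 members (SLC2A2, SLC2A3, PFKP, ENO2, PCK1 and PGM1) held without each library in turn. The other 6 lost it in at least 1 such fit, as given for each gene. A test against a 1.2-fold change called 2 members, PFKP and PCK1.

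Promoter sequence is shown for 2 called genes, PFKP, which rose, and G6PC1, which fell. They set a minor phosphofructokinase isoform beside a liver gene, and both were chosen with their changes known. Both sequence runs are written 5′ to 3′ on the strand of the gene (GRCh38.p14). That of PFKP holds the 250 bases directly before the gene start that RefSeq lists first. That of G6PC1 holds 248 bases, because bases before its RefSeq start that GENCODE 29 lists as untranslated region were left out. Distances are counted from the RefSeq start. GENCODE 29 lists an earlier start for PFKP as well, and the gene in the counts begins at 3066333. The PFKP run thus lies inside that gene model, and parts of it may be transcribed. Capitals mark exact matches, on either strand, to the TATA box TATAAA, the GC box GGGCGG, the cAMP response half-site TGACG, the hypoxia response core (ACGTG or GCGTG) or the E-box CACGTG, which contains ACGTG.
PFKP (chr10:3067720-3067969, plus strand): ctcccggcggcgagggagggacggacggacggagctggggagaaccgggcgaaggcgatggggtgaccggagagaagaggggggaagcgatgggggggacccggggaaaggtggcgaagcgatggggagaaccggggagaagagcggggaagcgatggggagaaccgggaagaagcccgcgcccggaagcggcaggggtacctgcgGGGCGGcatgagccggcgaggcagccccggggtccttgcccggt
G6PC1 (chr17:42900549-42900796, plus strand): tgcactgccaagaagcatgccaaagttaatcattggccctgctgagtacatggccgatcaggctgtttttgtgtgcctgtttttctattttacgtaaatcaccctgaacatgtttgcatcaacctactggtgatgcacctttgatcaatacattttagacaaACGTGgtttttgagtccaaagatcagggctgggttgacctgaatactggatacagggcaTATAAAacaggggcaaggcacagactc

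Over 250 bases the window of PFKP was rich in G and C (72.8%) and that of G6PC1 was not (44.0%). The median was 58% over all promoters and 68.4% over the members with a window. Among called members the directions overlapped. Those that rose ran from 48.8% (SLC2A2) to 76.8% (HK2), and those that fell from 44.0% (G6PC1) to 77.6% (GPD1L). PFKP held a single GC box match, 44 bases before the gene start. G6PC1 held a TATA box match that begins 29 bases before the start and 1 match to the hypoxia response core, 88 bases before it. The HK2 window held 4 GC box matches, 3 matches to the hypoxia response core and a cAMP half-site match that overlaps one of them. Windows of this kind were found for 36 of the 40 members. GC box matches lay in 23 of these 36, against 42.3% of 27305 promoters of the same length, and hypoxia response core matches in 21, against 43.1%. TATA box, cAMP half-site and E-box matches lay in 5 members each, against 11.1%, 21.7% and 6.49% of all promoters. Among the called members with a window, GC box matches lay in 4 of the 6 that rose and 1 of the 4 that fell, and hypoxia response core matches in 4 of 6 and 3 of 4. A match describes letters only, and no binding was measured here.

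Glucose enters through facilitative carriers, and 2 of the 3 in the set rose. The wider list held 12 further genes of the SLC2 and SLC5 carrier families. Of these, 9 were tested, 0 were called higher and 1 lower (SLC2A6), and 6 of the 9 had log2 changes below 0. SLC2A3 (GLUT3, ENSG00000059804, chromosome 12, 7919230 to 7936275 in GRCh38), the high-affinity carrier of neurons that many tumours also express, stood at 253, 237 and 255 CPM with vehicle and 301, 321 and 302 CPM with glycine. Each glycine library lay above each vehicle library, and the log2 change was 0.31 ± 0.0638 (standard error, edgeR adjusted p = 0.00623). SLC2A2 (GLUT2, ENSG00000163581, chromosome 3, 170996348 to 171026750), the low-affinity carrier of hepatocytes and beta cells, stood at 39.6, 41.0 and 34.4 CPM with vehicle and 51.4, 48.3 and 50.7 CPM with glycine. Again the groups did not overlap, and the log2 change was 0.39 ± 0.0749 (edgeR adjusted p = 0.00442). SLC2A1 (GLUT1), the ubiquitous carrier, was the most abundant of the 3 per length, at 259.5 ± 11.6 RPKM with vehicle (CPM per kilobase of exon, SD, n = 3), against 40.3 ± 1.58 for SLC2A3 and 11.2 ± 1.02 for SLC2A2. Its CPM were 1219, 1332 and 1285 with vehicle and 1353, 1402 and 1346 with glycine, with no overlap, but the change did not pass the threshold (log2 change 0.10 ± 0.0727, edgeR adjusted p = 0.435). On the per-length scale SLC2A1 held 83.4% ± 0.907 (SD, n = 3) of the summed level of the 3 carriers with vehicle and 81.1% ± 0.0392 with glycine.

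TXNIP, the arrestin-like protein that holds back glucose uptake and whose transcript follows glucose supply, varied widely between replicates, with a coefficient of variation of 35.5% in the vehicle group. Its CPM were 11.7, 9.35 and 5.48 with vehicle and 9.84, 12.9 and 7.63 with glycine, so the groups overlapped (log2 change 0.21 ± 0.224, edgeR adjusted p = 0.602). Its relative ARRDC4 showed the same order of libraries within the vehicle group at a lower level, 2.14, 1.81 and 0.974 CPM with vehicle and 2.29, 2.15 and 1.61 CPM with glycine (edgeR adjusted p = 0.473). The difference in neither gene exceeded the spread between libraries.

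Within glycolysis, the clearest rise was in a minor isoform of phosphofructokinase. PFKP (ENSG00000067057, chromosome 10, 3066333 to 3137712), the platelet form of 6-phosphofructokinase, stood at 17.95, 17.6 and 18.1 CPM with vehicle and 29.5, 32.9 and 28.3 CPM with glycine. The vehicle libraries lay within 1 CPM of each other and each glycine library was above them all, a log2 change of 0.76 ± 0.0759 or 1.69-fold (edgeR adjusted p = 2.48e-05). This call held in all 15 alternative fits. An overlapping gene shares 2.48% of its exonic bases. The other phosphofructokinase subunits were not called. PFKL, the liver form and the main one here, stood at 286, 299 and 291 CPM with vehicle and 272, 283 and 262 CPM with glycine, each glycine library lower, without passing the threshold (log2 change -0.10 ± 0.0623, edgeR adjusted p = 0.333). PFKM, the muscle form, was low, at 3.88, 4.67 and 3.28 CPM with vehicle and 3.98, 3.50 and 4.12 CPM with glycine (edgeR adjusted p = 0.909). Per length, PFKP therefore made up 10.2%, 9.63% and 10.2% of the summed phosphofructokinase level in the vehicle libraries and 16.5%, 17.4% and 16.4% in the glycine libraries. PFKL held 88.5% ± 0.197 (SD, n = 3) with vehicle and 81.8% ± 0.418 with glycine. These shares are ratios within a library and do not depend on how libraries were scaled, and with 3 libraries against 3 an exact permutation test cannot give a p below 0.1.

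HK2 (ENSG00000159399, chromosome 2, 74833981 to 74893359), the hexokinase of muscle and tumours that binds mitochondria, stood at 99.2, 75.0 and 92.2 CPM with vehicle and 113, 102 and 129.8 CPM with glycine. The lowest glycine library was just above the highest vehicle library, and the log2 change was 0.37 ± 0.104 (edgeR adjusted p = 0.0316). The call was lost without vehicle replicate 2 (edgeR adjusted p = 0.0855), the lowest vehicle library, without glycine replicate 1 (0.0689) and without glycine replicate 3 (0.147). HK1, the hexokinase of brain and red cells, was far lower per length, at 0.589 ± 0.0575 RPKM with vehicle against 14.6 ± 2.06 for HK2, and overlapped between groups (edgeR adjusted p = 0.68). HKDC1, a hexokinase-like gene outside the set, was next to HK2 at 9.60 ± 0.934 RPKM and was not called (log2 change 0.14, edgeR adjusted p = 0.293). GCKR, outside the set, fell from 8.16 ± 0.869 to 4.998 ± 0.968 CPM (SD, n = 3, log2 change -0.69 ± 0.137, edgeR adjusted p = 0.00532).

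The bifunctional enzymes that set fructose 2,6-bisphosphate, the activator of phosphofructokinase, gave no call among 3 tested (edgeR, 1 with an unadjusted p under 0.05). PFKFB1, the liver form, was at 2.48, 2.26 and 1.95 CPM with vehicle and 3.04, 2.7 and 2.63 CPM with glycine, all glycine libraries above (log2 change 0.31 ± 0.149, edgeR adjusted p = 0.192). PFKFB4 went the opposite way, 11.9, 10.98 and 12.02 against 10.1, 10.1 and 10.2 CPM, all glycine libraries below (log2 change -0.20 ± 0.0826, edgeR adjusted p = 0.14). PFKFB3, the inducible form, overlapped between the groups (edgeR adjusted p = 0.571), and so did PFKFB2 outside the set (0.991). A missed threshold does not show that these transcripts were alike in the groups.

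**Figure D2:**
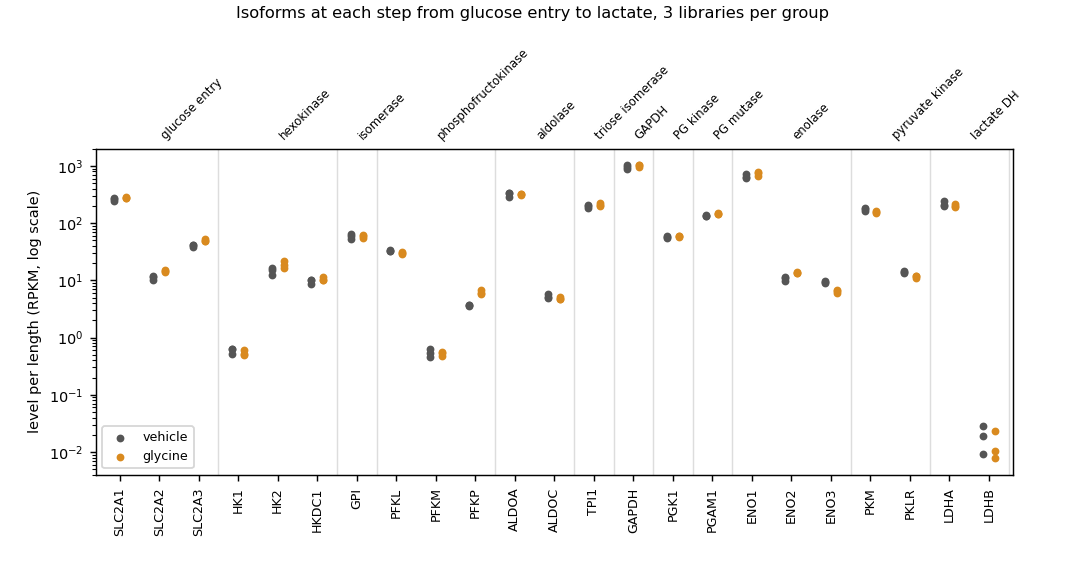
Level per length (RPKM, log scale, y axis) of the isoforms at each step from glucose entry to lactate (x axis) in the 3 vehicle (grey) and 3 glycine (orange) libraries. GAPDH and ENO1 lead the path, a single isoform dominates most steps, and the visible shifts are in minor isoforms such as PFKP and ENO3.

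The enzymes of the main path differed widely in level. Ranked per length with vehicle, GAPDH led at 955 ± 77.5 RPKM (SD, n = 3), followed by ENO1 at 655 ± 58.3, ALDOA at 320.2 ± 25.8, SLC2A1 at 259.5 ± 11.6, LDHA at 217 ± 20.9, TPI1 at 197 ± 10.4, PKM at 175 ± 9.88 and PGAM1 at 136 ± 4.23. LDHA and TPI1 lay within their spread of each other. The next glycolytic enzymes were GPI at 59.5 ± 5.85 and PGK1 at 56.8 ± 1.81 RPKM, which did not differ beyond their spread either. The exon length in the files joins all listed exons of a gene, so RPKM values order genes only roughly. Together the 17 glycolytic genes from hexokinase to lactate dehydrogenase with enough counts accounted for 1.16% to 1.31% of all counts in the vehicle libraries and 1.23% to 1.32% in the glycine libraries.

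GAPDH, the triose phosphate dehydrogenase, stood at 2595, 3049 and 2895 CPM with vehicle and 3063, 3047 and 2863 CPM with glycine, and the groups overlapped (log2 change 0.072 ± 0.086, edgeR adjusted p = 0.643). The aldolase ALDOA was at 1787, 2069 and 2054 CPM with vehicle and 1962, 2029 and 1876 CPM with glycine (-0.011 ± 0.0832, adjusted p = 0.954 with edgeR). The isomerases GPI and TPI1, the kinase PGK1 and the minor aldolase ALDOC overlapped as well, with log2 changes of -0.0016, 0.10, 0.059 and -0.091. The mutase PGAM1 lay higher in all glycine libraries, 338, 360.2 and 348 against 372, 392.5 and 367 CPM, and did not pass the threshold (log2 change 0.11 ± 0.064, edgeR adjusted p = 0.287). Processed pseudogenes of these enzymes took few counts: the 65 listed for GAPDH together held at most 0.0884% of its counts, and the 4 of TPI1 at most 0.502%. An overlapping gene shares 14.2% of the exonic bases of GAPDH and 8.45% of those of ALDOA, and reads there are ambiguous.

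Enolase, which makes phosphoenolpyruvate, changed in its minor isoforms. ENO2 (ENSG00000111674, chromosome 12, 6913745 to 6923698), the neuronal enolase, rose from 42.1, 46.6 and 48.8 CPM with vehicle to 58.6, 59.3 and 56.5 CPM with glycine. Each glycine library was above each vehicle library (log2 change 0.34 ± 0.0692, edgeR adjusted p = 0.00578). ENO3, the muscle enolase and not one of the 40, fell from 38.8, 39.5 and 42.6 to 25.3, 29.01 and 27.6 CPM (log2 change -0.56 ± 0.0728, edgeR adjusted p = 0.000228). ENO1, the ubiquitous form, was at 2388, 2843 and 2547 CPM with vehicle and 2961, 3144 and 2679 CPM with glycine, and its highest vehicle library exceeded its lowest glycine library (0.18 ± 0.0929, edgeR adjusted p = 0.249). Per length ENO1 held 97.0% ± 0.248 (SD, n = 3) of the enolase level with vehicle and 97.4% ± 0.161 with glycine. The share of ENO3 went from 1.40% ± 0.133 to 0.840% ± 0.0772, with no overlap, and that of ENO2 from 1.59% ± 0.121 to 1.79% ± 0.0986, with overlap.

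Both pyruvate kinases lay lower in every glycine library. PKLR (ENSG00000143627, chromosome 1, 155289839 to 155301434), the form of liver and red cells, stood at 35.7, 38.5 and 36.6 CPM with vehicle and 31.2, 31.6 and 29.2 CPM with glycine. It passed the threshold (log2 change -0.27 ± 0.067, edgeR adjusted p = 0.0185), but not without vehicle replicate 2 (0.0558) or glycine replicate 3 (0.0781). PKM, which gives the muscle and tumour forms by splicing, stood at 1418, 1587 and 1495 CPM with vehicle and 1323, 1402 and 1274 CPM with glycine, a difference that did not pass (log2 change -0.17 ± 0.0774, edgeR adjusted p = 0.174). PKLR made up 7.47% ± 0.134 (SD, n = 3) of the pyruvate kinase level per length with vehicle and 7.01% ± 0.156 with glycine, and the shares did not overlap.

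Pyruvate is turned to lactate by LDHA and LDHB or passed to mitochondria, where PDK1 inhibits its oxidation. LDHA stood at 1247, 1495 and 1307 CPM with vehicle and 1319.8, 1262 and 1192 CPM with glycine, with overlap (log2 change -0.10 ± 0.0847, edgeR adjusted p = 0.483). LDHB, the heart form, was almost absent from the counts, with 3, 2 and 1 with vehicle and 1, 4 and 1 with glycine, and a difference was not detectable at this depth. PDK1 was at 12.1, 10.98 and 10.1 CPM with vehicle and 9.49, 8.37 and 10.7 CPM with glycine, with overlap (log2 change -0.22 ± 0.107, edgeR adjusted p = 0.211). Outside the set, LDHD, a mitochondrial D-lactate dehydrogenase, fell from 20.8, 21.2 and 26.3 to 14.2, 13.1 and 15.6 CPM (log2 change -0.68 ± 0.101, edgeR adjusted p = 0.000682). MPC2, a subunit of the mitochondrial pyruvate carrier, fell from 76.6 ± 5.48 to 65.1 ± 2.61 CPM (SD, n = 3, log2 change -0.24, edgeR adjusted p = 0.0388), a call that was lost in 5 of the 6 fits without a library, where the adjusted p reached 0.129 without glycine replicate 3.

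**Figure D3:**
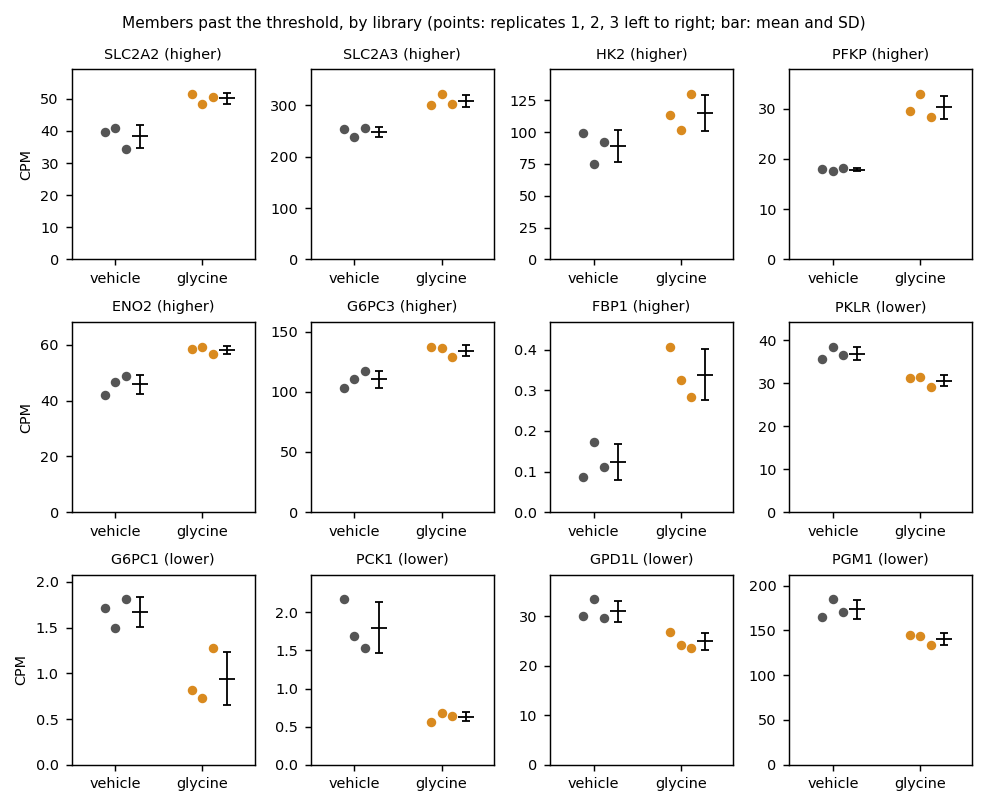
CPM (y axis, from 0) of the 12 members past the threshold in each vehicle (grey) and glycine (orange) library, with the mean and SD of 3 beside the points. No gene shows overlap between the groups; PCK1, G6PC1 and FBP1 lie below 2.5 CPM in every library.

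Gluconeogenesis held the largest changes in both directions, at low levels. PCK1 (ENSG00000124253, chromosome 20, 57561080 to 57568112), the cytosolic phosphoenolpyruvate carboxykinase and a rate-setting enzyme of the pathway, had 76, 59 and 55 counts with vehicle and 18, 40 and 27 with glycine. As CPM these were 2.17, 1.69 and 1.53 with vehicle and 0.564, 0.684 and 0.640 with glycine, so the highest glycine library was well below the lowest vehicle library. The log2 change was -1.49 ± 0.212 (edgeR adjusted p = 0.000471), and the call held in all 15 alternative fits. PCK2, its mitochondrial counterpart, was the abundant form, at 82.4 ± 4.36 RPKM with vehicle (SD, n = 3) against 0.264 ± 0.0488 for PCK1, and was not called (log2 change 0.11, edgeR adjusted p = 0.321).

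Free glucose is released by glucose 6-phosphatase, whose catalytic subunits went opposite ways. G6PC1 (ENSG00000131482, chromosome 17, 42900797 to 42913369), the subunit of liver and kidney, stood at 1.71, 1.49 and 1.81 CPM with vehicle and 0.815, 0.735 and 1.28 CPM with glycine. The groups did not overlap, although glycine replicate 3 came close to the lowest vehicle library, and the log2 change was -0.84 ± 0.226 (edgeR adjusted p = 0.0274). The call was lost without vehicle replicate 1 (0.0712), vehicle replicate 3 (0.0689), glycine replicate 1 (0.0762) or glycine replicate 2 (0.132). G6PC3 (ENSG00000141349, chromosome 17, 44070735 to 44076344), the ubiquitous subunit, rose from 103, 110.5 and 117 CPM with vehicle to 137, 136 and 129 CPM with glycine (log2 change 0.28 ± 0.0658, edgeR adjusted p = 0.0125). That call was lost without vehicle replicate 1 (0.0719) or glycine replicate 1 (0.0725). Per length G6PC3 was at 24.2 ± 1.59 RPKM with vehicle and G6PC1 at 0.507 ± 0.0494. SLC37A4, the carrier that brings glucose 6-phosphate to the enzyme, stood at 61.9, 62.5 and 66.3 CPM with vehicle and 59.2, 59.0 and 56.8 CPM with glycine, each glycine library lower, and was not called (log2 change -0.12 ± 0.0616, edgeR adjusted p = 0.22).

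FBP1 (ENSG00000165140, chromosome 9, 94603133 to 94640249), the fructose 1,6-bisphosphatase opposing phosphofructokinase, was nearly silent, with 3, 6 and 4 counts with vehicle and 13, 19 and 12 with glycine. All glycine libraries were above all vehicle libraries, and the fitted log2 change was 1.42 ± 0.412 (edgeR adjusted p = 0.0379). Its vehicle counts lay below the minimum count of 10 in the expression filter and its glycine counts above it. FBP1 was therefore tested only because of the group in which it was higher. With so few counts the call was fragile. The call was lost with no filter on low genes (edgeR adjusted p = 0.0538) and in 5 of the 6 fits without a library, where the adjusted p reached 0.142 without vehicle replicate 1. Pyruvate carboxylase, PC, which feeds gluconeogenesis and was not one of the 40, fell from 187, 231 and 189 to 179, 162 and 157 CPM (log2 change -0.29 ± 0.0855, edgeR adjusted p = 0.0417), and lost its call without vehicle replicate 2 (0.125), glycine replicate 2 (0.119) or glycine replicate 3 (0.13). The summed hepatocyte lineage markers given above were also lower in the glycine libraries, beside PCK1, G6PC1, PKLR and PC. Not all genes of liver glucose handling fell: SLC2A2 was called higher, and the liver phosphorylase PYGL was not called. FBP1 was called higher too, with the limits given above. The part of the hepatocyte markers in these results was not tested.

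Glycerol 3-phosphate dehydrogenases link triose phosphates to lipid and to the transfer of reducing power into mitochondria. GPD1L (ENSG00000152642, chromosome 3, 32105689 to 32168713) stood at 30.1, 33.5 and 29.7 CPM with vehicle and 26.9, 24.3 and 23.7 CPM with glycine, a fall with no overlap (log2 change -0.32 ± 0.0768, edgeR adjusted p = 0.016). It was not called without vehicle replicate 2 (0.0546), glycine replicate 2 (0.0603) or glycine replicate 3 (0.0662). GPD1, the main cytosolic form, overlapped between the groups at 46.1, 46.6 and 47.8 CPM with vehicle and 48.7, 50.0 and 43.2 CPM with glycine (edgeR adjusted p = 0.922).

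Among the glycogen genes, PGM1 (ENSG00000079739, chromosome 1, 63593276 to 63660245), which interconverts glucose 1-phosphate and glucose 6-phosphate, fell. Its CPM were 165, 185 and 171 with vehicle and 145, 143 and 133 with glycine, with no overlap (log2 change -0.30 ± 0.0663, edgeR adjusted p = 0.00917). ITGB3BP shares 4.82% of its exonic bases. The liver glycogen phosphorylase PYGL (113, 117 and 115 CPM with vehicle, 116, 112 and 109 with glycine) and the branching enzyme GBE1 (27.7, 29.5 and 24.6 CPM with vehicle, 28.8, 28.4 and 28.9 with glycine) overlapped between groups, with edgeR adjusted p of 0.769 and 0.58. GYS2, the liver glycogen synthase, had 0 counts in all 6 libraries, which allows up to 3 counts or between 0.0510 and 0.0944 CPM in a library. The muscle synthase GYS1 and the brain phosphorylase PYGB, outside the set, were at 14.0 ± 1.35 and 83.0 ± 10.8 RPKM with vehicle (SD, n = 3) and were not called (edgeR adjusted p = 0.784 and 0.997). PGM2L1, a relative of PGM1, was called higher, from 8.53, 8.54 and 6.34 to 10.8, 9.18 and 11.6 CPM (log2 change 0.43 ± 0.126, edgeR adjusted p = 0.0416), and kept the call in 2 of the 6 fits without a library, the adjusted p reaching 0.16 without glycine replicate 3.

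The pentose phosphate pathway makes NADPH and ribose 5-phosphate, and none of its 3 members was called (edgeR, 1 with an unadjusted p under 0.05). PGD, its second dehydrogenase, was at 313, 359.9 and 327 CPM with vehicle and 364, 360.4 and 336 CPM with glycine (log2 change 0.084 ± 0.071, edgeR adjusted p = 0.491). The transaldolase TALDO1 also overlapped (edgeR adjusted p = 0.78). The transketolase TKT lay lower in all glycine libraries, 485, 551 and 537 against 471, 483 and 459 CPM, without passing the threshold (log2 change -0.16 ± 0.0704, edgeR adjusted p = 0.173).

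**Figure D4:**
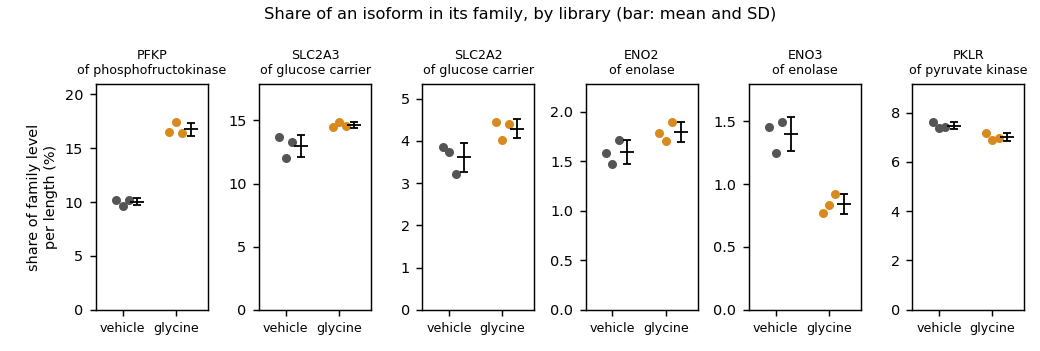
Share (percent, y axis from 0) of 6 isoforms in the summed level per length of their family, in each vehicle (grey) and glycine (orange) library, with the mean and SD of 3. PFKP moves from about 10.0% to 16.8% of phosphofructokinase, while ENO2 and PKLR move by less than 1 percentage point of their families.

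A list of 84 other genes of the same pathways gives the surroundings of the 40. Of these, 66 were tested, 2 were called higher, PGM2L1 among them, and 7 lower (ENO3, LDHD, SLC2A6, GCKR, MLXIPL, MPC2 and PC), or 13.6%, against 13.3% of all tested genes. SLC2A6, a lysosomal hexose carrier, fell from 49.1, 54.9 and 52.9 to 41.5, 38.7 and 40.3 CPM (log2 change -0.38 ± 0.067, edgeR adjusted p = 0.00225). MLXIPL, the glucose-sensing factor ChREBP that drives PKLR in liver, fell from 74.4, 65.2 and 80.1 to 61.0, 54.8 and 59.2 CPM (log2 change -0.33 ± 0.0791, edgeR adjusted p = 0.0149), and was not called without glycine replicate 2 (0.0642). The 18 genes that were not tested had at most 51 counts over all 6 libraries. The median log2 change of the 66 tested genes was -0.04.

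Replicates differed in a way that ran through many of the 40 genes. Vehicle replicate 2 was the highest vehicle library for 22 of the 38 tested members and for 12 of the 17 glycolytic genes from hexokinase to lactate dehydrogenase, and vehicle replicate 1 the lowest for 22 of the 38. In the glycine group replicate 2, the deepest library, was highest for 19 members and replicate 3 lowest for 27. The median coefficient of variation of the tested members was 7.30% with vehicle and 4.73% with glycine. Without vehicle replicate 2, 6 members were called higher and 3 lower, PCK1, G6PC1 and PGM1. Without glycine replicate 2, 6 were higher and 3 lower, PCK1, PKLR and PGM1. Omitting glycine replicate 1 left 4 higher (ENO2, PFKP, SLC2A2 and SLC2A3) and 4 lower, and omitting glycine replicate 3 left 5 higher and 3 lower (G6PC1, PCK1 and PGM1).

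**Figure D5:**
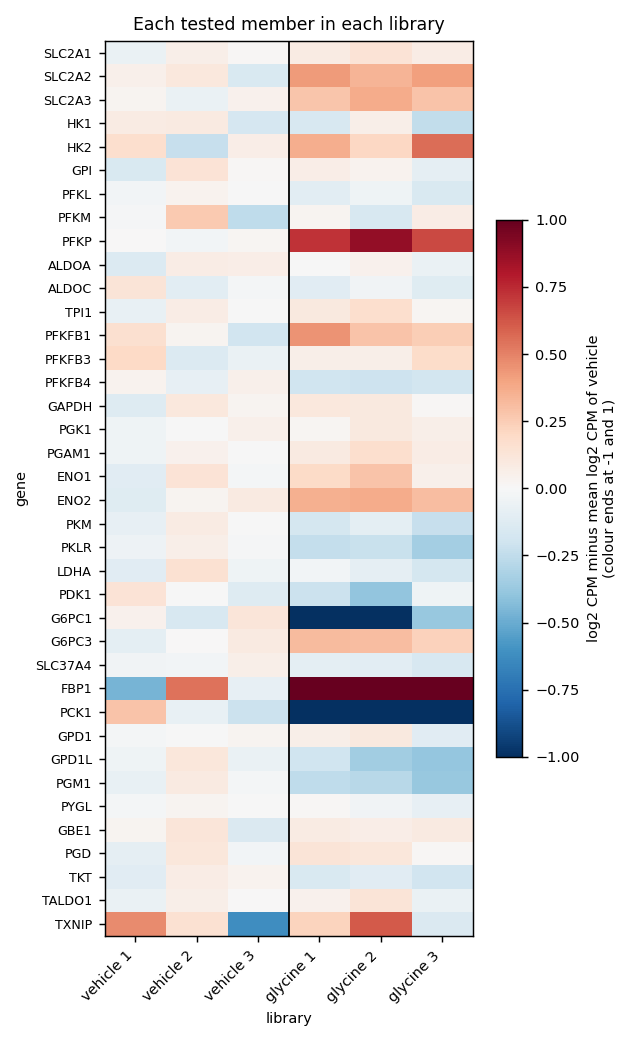
Each tested member (y axis) in each library (x axis), as log2 CPM minus the mean log2 CPM of the vehicle libraries; the colours end at -1 and 1. PFKP and FBP1 are high and PCK1 and G6PC1 low in the glycine libraries, and the rows of the main path are mostly pale.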

How the data were processed

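RNA-seq of 6 HepG2 libraries, 3 with vehicle and 3 with glycine, was used, grouped by the sample titles. The authors deposited raw counts of reads per gene, 1 file per library. The submitters' processing notes name Trimmomatic 0.36, STAR 2.5.2b, featureCounts of Subread 1.5.2 and GRCh38. Strand setting, annotation and treatment of multiply mapped reads are not given in the sources used here, so counts of overlapping genes and near-identical paralogs are less certain. Symbols were taken by Ensembl identifier for 56898 of 57500 genes; G6PC1 is G6PC in GENCODE 29.

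Counts were tested with the edgeR 4.0.16 quasi-likelihood test in R 4.3.3 (two-sided, group alone), after its expression filter (minimum count 10, minimum total 15) and TMM scaling (trimmed mean of M values). The Benjamini-Hochberg adjustment ran over 15492 genes (threshold 0.05). One read equalled 0.0170 to 0.0315 CPM, depending on the library, and limits from counts cover counting error only. Standard errors are the log2 change over the square root of F. RPKM divides CPM by the exon length in the files. The labels do not say whether replicates were separate cultures, although the series text calls them independent. The replicates of a group differed by between 7.35 and 28.5 in chi-square per degree of freedom, so none was a duplicate.

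The genes and lists were chosen with earlier results of these data known. Named genes are all 40 members, called genes of the 84 others, and 10 close isoforms, some of which are not reported here. Alternatives were other scaling and filters, DESeq2 1.42.0, limma-voom 3.58.1, a test against a 1.2-fold change, a block for replicate number, and fits that omit a library. The enolase shares were added after seeing the data. The edgeR script was tested on simulated data.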

Additional observations from a re-analysis of the deposited data

How the results depend on the processing

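All 12 called members kept their direction in the alternative fits that tested them. The test against a 1.2-fold change, which asks for a larger change, called 1 member higher and 1 lower, 0 of the other pathway genes higher and 3 lower, with 235 for all tested genes called higher and 246 for all tested genes called lower. Without a filter on low genes 4 of the other pathway genes were higher, against 2, and the cause was not tested. Leaving out 1 library at a time, with fewer samples, gave from 4 to 6 members higher and 3 to 4 lower, from 0 to 3 other pathway genes higher and 4 to 7 lower, and from 587 to 926 of all genes higher and 655 to 1010 lower. DESeq2 size factors, upper-quartile and total count scaling, no filter, the CPM filter, the DESeq2 test and limma-voom called between 6 and 7 members higher and 5 lower. FBP1 was not tested under the CPM filter and had no adjusted p with DESeq2.

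Same-numbered libraries deviated from their group means with correlations of -0.058, -0.027 and -0.003, so the numbers showed no pairing. Correlations were 0.214 for vehicle 1 with glycine 3, 0.214 for vehicle 2 with glycine 1 and 0.18 for vehicle 3 with glycine 2. The remaining pairs lay between -0.198 and -0.154. The labels give no culture day, and pairing by day was not tested. With the replicate number as a block, 6 members were called higher and 5 lower, 1 other pathway gene higher and 6 lower, with 866 for all tested genes called higher and 918 for all tested genes called lower. FBP1 (edgeR adjusted p = 0.063) and MPC2 (0.0575) were among the calls lost in the blocked fit.

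Uncalled genes with changes near 0 turned in sign. GPI had log2 changes of 0.013 with total count scaling, 0.0024 with no filter, 0.0017 with limma-voom and 0.0013 with the block, and ALDOA 0.0041 with total count scaling. PFKFB2 was at -0.0036 with DESeq2 size factors, -0.0020 with upper-quartile scaling and -0.0017 with DESeq2, and PYGB at -0.0057, -0.0044 and -0.0058. Without 1 library the log2 change ran from -0.084 to 0.069 for GPI, -0.15 to 0.10 for PFKM, -0.087 to 0.027 for ALDOA, -0.0019 to 0.12 for GAPDH, -0.028 to 0.066 for GPD1, -0.0097 to 0.076 for TALDO1, -0.046 to 0.45 for TXNIP, -0.12 to 0.10 for PFKFB2, -0.029 to 0.12 for GYS1 and -0.060 to 0.11 for PYGB. The cause was not tested. With no division by length, the PFKP share was 5.71% with vehicle and 9.87% with glycine.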
